A study of Mus musculus with 5 samples.

Results

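The genes described here encode proteins of the pre-mRNA splicing machinery, compared between leukaemia cells and normal myeloid cells of the mouse. Members were all rows of the deposited expression table whose symbol began with Srsf and a digit, Hnrnp, Snrp, Sf3a or Sf3b and a digit, U2af, or Prpf and a digit, which gave 71 of 34240 features. They fall into 6 groups, namely 14 SR rows, 19 hnRNP rows, 14 snRNP rows, 8 SF3 rows, 3 U2AF rows and 13 Prpf rows. All mice were BALB/c and 10 to 12 months old. Normal cells had been sorted from bone marrow for the surface antigens Gr1 and Mac1 and gave 3 libraries, called normal 1 to 3. Leukaemia cells carried CNTRL-FGFR1, in which the receptor tyrosine kinase FGFR1 is joined to a protein of the centrosome, and which gave rise to an acute myeloid leukaemia (AML). These cells, Mac+, Gr1+ and B220+, were sorted from marrow and spleen, and their 2 libraries are called AML 1 and AML 2. Spleen and the B220 gate belonged to the AML group alone, so neither can be told apart from the disease. No label ties a library to an animal. If libraries shared animals, the spread behind each p-value is in part technical.

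Splicing removes introns from a pre-mRNA in a complex, the spliceosome, that is built on each intron from small nuclear ribonucleoproteins (snRNPs) and many further proteins. The U1 snRNP reads the start of an intron, while U2AF and the SF3a and SF3b complexes of the U2 snRNP read its end and branch point. Several Prp proteins belong to the tri-snRNP, and some act in the catalytic steps. SR proteins mostly promote and hnRNP proteins often repress the use of an exon, and the balance of the 2 families sets many alternative splicing choices. In human myeloid neoplasms SF3B1, SRSF2, U2AF1 and ZRSR2 are recurrently mutated. A level of mRNA, which is what was measured here, says nothing of such mutations, of protein, or of which exons were joined.

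Values are taken to be RPKM, read counts scaled to transcript length and to the size of the library, although no label or header names a unit. Fold changes on the log2 scale come from limma on log2(RPKM + 1), with p-values adjusted by Benjamini and Hochberg over all 10166 genes that reached 1 RPKM in at least 2 libraries, and a gene was called at an adjusted p under 0.05. In bulk samples fewer cells of a type and less RNA per cell cannot be told apart. RPKM totals ran from 472234 to 615921 in normal and from 524000 to 638584 in AML libraries. The calprotectin genes S100a8 and S100a9 took 28.1% to 37.0% of the total in normal and 20.8% to 30.1% in AML libraries, and members together took 0.465% to 0.515% and 0.542% to 0.648%. Normal 3 stood apart from its group. Its Pearson correlation with normal 1 and normal 2 over all tested genes was 0.924 and 0.944, against 0.988 between those 2. Over the tested members normal 3 correlated at 0.952 with AML 1, above its 0.879 and 0.916 with normal 1 and normal 2. Of 10 neutrophil markers 2 were higher in AML cells and 5 lower. The granule protein genes of early precursors Elane and Mpo were 62.2-fold and 17.8-fold higher, and Mmp8, Ltf, Ly6g, Itgam and Csf3r were 6.85-fold to 2.31-fold lower. S100a8, S100a9 and Camp were not called, and the sum of the 10 genes, most of it S100a8 and S100a9, lay between 152098 and 254764 RPKM in normal and between 136888 and 222829 RPKM in AML libraries. Of 8 monocyte and macrophage markers all 8 were lower in AML cells, with sums of 566 to 968 RPKM in normal and 46.1 to 51.0 RPKM in AML libraries. Of 8 T and NK cell markers 3 were tested, Cd3e and Cd3g being higher and Cd3d lower. Sums were 42.0 to 48.3 RPKM in normal and 338 to 340.5 RPKM in AML libraries. Most of the AML sums was Cd3e, at 232.97 and 205.32 RPKM, and Cd3g, at 89.53 and 113.99 RPKM. Cd2, Lck, Cd4, Cd8a and Klrb1c stayed under 1 RPKM in every library, and Cd8a was listed at 0 in both AML libraries. Of 8 B lineage markers 3 were tested and none was called, with sums of 11.6 to 18.7 RPKM in normal and 10.7 to 13.1 RPKM in AML libraries, although B220 was part of the AML sort. Of 6 erythroid markers none was called, and sums were 1500.5 RPKM in normal 1 and 963 RPKM in normal 2 but 101 RPKM in normal 3 and 114 and 125 RPKM in the AML libraries. Among 8 proliferation genes 4 rose and 2 fell, with sums of 315 to 459 and 446 to 662 RPKM. The part of these differences in the results on splicing factors was not tested.

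Of the 71 rows 65 passed the filter, and 4 of the others, Snrpn and the pseudogenes Hnrnpa1l2-ps, Snrp1c-ps1 and Snrp1c-ps2, were listed at 0 in every library. Srsf13b stayed at or below 0.10 RPKM, and Prpf40b went from 0.21 to 0.32 RPKM in normal to 0.54 and 0.95 RPKM in AML libraries. Of the 65 tested members 9 were higher and 1 was lower in AML cells (limma, Benjamini-Hochberg adjusted p under 0.05), which is 13.8% and 1.54%. Over all tested genes 19.3% were called higher and 11.8% lower, and the members' shares lay below the background in both directions. Changes were small and mostly upward: 48 of 65 members had a log2 fold change above 0 (73.8%, against 55.9% of all tested genes). The median member stood at 0.41, against 0.12 over all tested genes, and members ranged from -0.90 to 1.69, where all genes ranged from -5.05 to 7.49. In 31 members (47.7%) both AML values lay above all normal values, against 34.8% of all tested genes, and in 3 (4.62%) both lay below, against 22.1%. At an unadjusted p under 0.05 limma counted 20 members (30.8%, against 43.9% of all genes). Without normal 3 the counts were 23 higher and 2 lower of 65, or 35.4% and 3.08%, beside 27.3% and 21.2% of all genes. Leaving out normal 1 gave 2 higher, normal 2 gave 1, AML 1 gave 1 and AML 2 gave 0 (limma, with 7 members at an unadjusted p under 0.05), and none lower in these 4 fits. With each library centred on its median the counts were 5 higher and 1 lower, the calls of Hnrnph3, Snrpa1, Srsf7 and Srsf12 being lost, while the background moved from 1959 higher and 1196 lower to 1528 higher and 1550 lower.

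**Figure D1:**
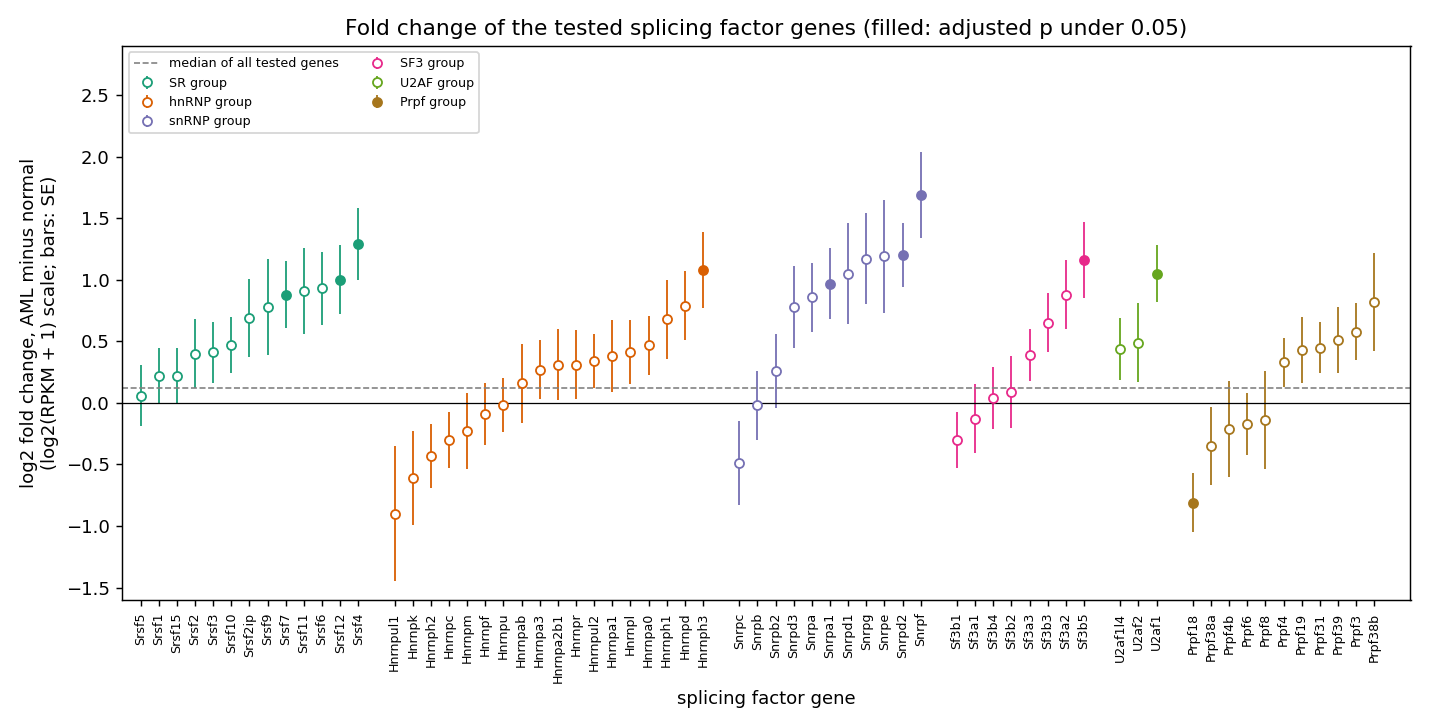
Log2 fold change between AML and normal cells of the tested splicing factor genes (vertical axis, with SE bars; filled symbols are called genes), ordered within the 6 groups. All 13 rows of the SR group lie above 0, the snRNP group reaches the highest value, 1.69 for Snrpf, and the Prpf group lies on both sides of 0. A single Prpf gene is not drawn, and the dashed line is the median of all tested genes, 0.12.

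In the SR group 3 of 13 tested rows were called higher, Srsf4, the row Srsf12 and Srsf7, and none lower. That is 23.1%, near the 19.3% of all tested genes called higher. Rows in this group partly carry older names. RefSeq lists Srsf13b as a synonym of today's Srsf12, Srsf15 of Scaf4 and Srsf2ip of Scaf11. It also lists Srsf12 as an older name of Srek1, a regulator related to SR proteins, and the row Srsf12 was read as Srek1 because Srsf13b has a row of its own. That reading is an inference, on which the position and length used for this row rest. Srsf4, an SR protein of the classical family (chromosome 4, 131429532 to 131457640, mm9), stood at 29.82, 28.14 and 47.13 RPKM in normal 1 to 3 and at 77.07 and 93.70 RPKM in AML 1 and AML 2. Both AML values lay well above all 3 normal values, and normal 3 was the highest of its group. The means were 35.03 ± 10.5 and 85.4 ± 11.8 RPKM (SD, n = 3 and n = 2), a 2.44-fold rise (log2 fold change 1.29, SE 0.29, limma adjusted p = 0.018). The row Srsf12, read as Srek1 (chromosome 13, 104531695 to 104564539), went from 7.23, 8.11 and 12.20 RPKM to 16.38 and 21.85 RPKM, 2.08-fold (log2 fold change 1.0, SE 0.28, limma adjusted p = 0.037). Srsf7, an SR protein with a zinc knuckle (chromosome 17, 80599429 to 80606629), went from 19.01, 24.96 and 29.22 RPKM to 39.62 and 51.52 RPKM, 1.87-fold (log2 fold change 0.88, SE 0.27, limma adjusted p = 0.046). In all 3 genes the groups did not overlap and normal 3 lay nearest to the AML values. These calls were lost without either AML library and without normal 1 or normal 2, at adjusted p from 0.055 to 0.26 in limma. Srsf4 overlaps Gm12992 on the other strand.

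The other SR rows had log2 fold changes above 0 but did not pass. Srsf2, which binds exonic enhancers, was listed at 78.66, 97.24 and 119.55 RPKM in normal and 147.96 and 111.37 RPKM in AML libraries, and AML 2 lay inside the normal range (log2 fold change 0.40, SE 0.28, limma adjusted p = 0.31). Srsf5, among the most abundant of the family, differed least, at 100.3, 138.1 and 116.2 RPKM against 125.3 and 118.6 RPKM (log2 fold change 0.06, SE 0.25). Srsf6 just missed the threshold, at 29.52, 40.43 and 53.42 RPKM against 70.70 and 84.02 RPKM (log2 fold change 0.93, SE 0.30, adjusted p = 0.055). Groups did not overlap in 8 of 13 rows (61.5%), all higher in AML, against 34.8% of all tested genes. No row had both AML values below all normal values, against 22.1% of all tested genes. Those 8 rows were the 3 called genes with Srsf3, Srsf6, Srsf10, Srsf11 and Srsf2ip. Srsf11 was spread widely in AML cells, at 55.87 and 94.96 RPKM against 28.37 to 50.88 RPKM, and Srsf9 overlapped only through normal 3, at 42.79 RPKM beside 19.40 and 18.76 RPKM and AML values of 38.58 and 49.80 RPKM. Srsf1, the founding member, was listed at 45.93 to 57.02 RPKM in normal and at 64.85 and 54.83 RPKM in AML libraries. Log2 fold changes of the 13 rows ran from 0.06 to 1.29 with a median of 0.69, against 0.12 for all tested genes. Without the rows Srsf12, Srsf15 and Srsf2ip, read as genes of other names, 10 rows remained. Their median was 0.63, and 2 of them were called higher (20.0%, against 19.3% of all tested genes).

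**Figure D2:**
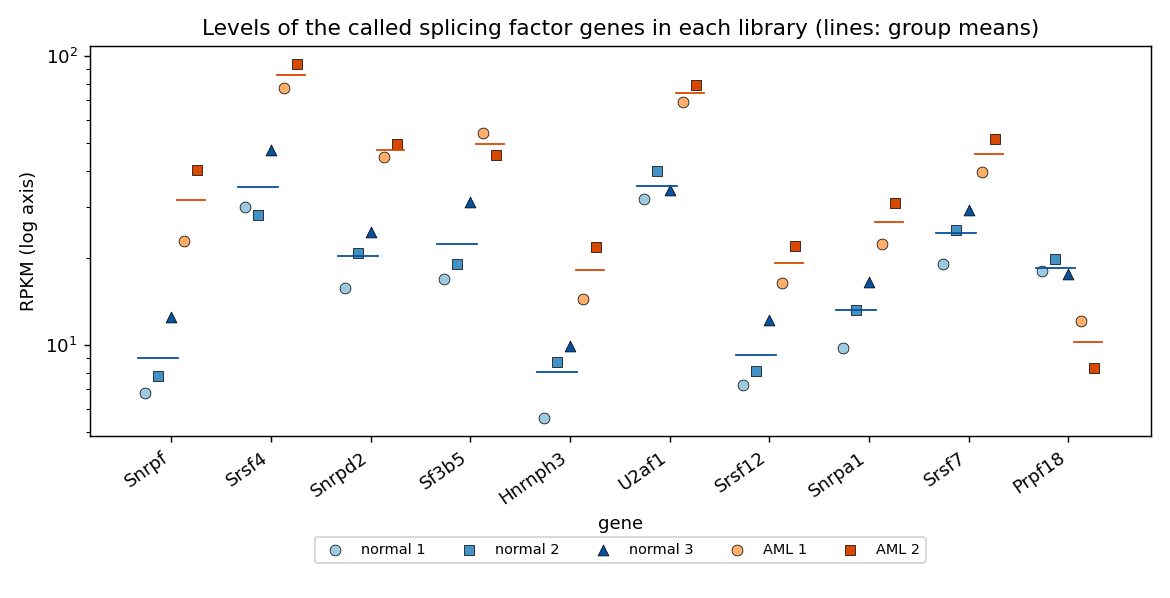
RPKM (vertical log axis) of the 10 called splicing factor genes in each of the 5 libraries, with lines at the group means. In 9 genes both AML symbols lie above the 3 normal symbols, Snrpf differing most (3.51-fold), and in Prpf18 they lie below.

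Among hnRNP genes 1 of 18 tested was called, the RNA-binding protein gene Hnrnph3, and it was higher in AML cells. That is 5.56%, below the 19.3% of all tested genes called higher. Hnrnph3 (chromosome 10, 62477412 to 62486965, mm9) stood at 5.55, 8.72 and 9.88 RPKM in normal and 14.38 and 21.83 RPKM in AML libraries. The groups did not overlap, and AML 2 was the highest library. Its rise was 2.25-fold (log2 fold change 1.08, SE 0.31, limma adjusted p = 0.038), and it was lost without either AML library or without normal 1 or normal 2 (adjusted p 0.068 to 0.24). Hnrnph3 overlaps Rufy2 on the other strand, and the library kit is not stated to keep strand, so reads of the 2 genes may not be separated. Its relative Hnrnph1 had a log2 fold change of 0.68 (SE 0.32, adjusted p = 0.15), with 94.39, 131.24 and 178.02 RPKM in normal and 190.82 and 229.48 RPKM in AML libraries. The third relative, Hnrnph2, had one of -0.43 (SE 0.26, adjusted p = 0.24), with 34.1, 45.0 and 43.9 RPKM against 35.1 and 25.7 RPKM.

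None of the abundant hnRNP genes passed the test, and they differed in sign and size. Hnrnpa2b1, which packages nascent transcripts, was listed at 155.10, 186.06 and 256.92 RPKM in normal and 251.13 and 231.93 RPKM in AML libraries, both inside the normal range (log2 fold change 0.31, SE 0.29, adjusted p = 0.44). Hnrnpu, a nuclear scaffold protein, was listed at 117.8, 126.1 and 118.0 RPKM against 126.1 and 111.4 RPKM (log2 fold change -0.02, SE 0.22). Hnrnpul1 gave the lowest log2 fold change of all members, -0.90, yet with the widest error (SE 0.55, adjusted p = 0.25). It was listed at 127.7, 101.7 and 54.5 RPKM in normal and 84.5 and 26.5 RPKM in AML libraries, so normal 3 and AML 2 were the low library of each group. Hnrnpk showed a like order, with 82.4, 87.9 and 59.0 RPKM against 73.3 and 32.8 RPKM (log2 fold change -0.61, SE 0.38, adjusted p = 0.26). Both AML values of Hnrnpc, 54.8 and 57.4 RPKM, lay below its normal values of 68.0, 78.2 and 62.1 RPKM (log2 fold change -0.30, SE 0.23, adjusted p = 0.35). Hnrnpd, also known as AUF1, an AU-rich element binding protein, came nearest to a call among the rest, from 22.50, 25.11 and 37.11 RPKM to 44.77 and 52.43 RPKM (log2 fold change 0.79, SE 0.28, adjusted p = 0.072). Of the 18 genes 11 had a log2 fold change above 0 and 7 below, with a median of 0.29. The family's abundant members have many processed pseudogenes, and how reads that match several places were assigned is not stated by any label or header.

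The snRNP group held the largest fold change of the members, that of Snrpf, with 3 of 11 tested genes higher (27.3%, against 19.3% of all tested genes), Snrpf, Snrpd2 and Snrpa1, and none lower. Its median log2 fold change was 0.97, against 0.12 for all tested genes, and 9 of 11 lay above 0. Snrpf encodes the Sm protein F (chromosome 10, 93045774 to 93052451, mm9). It stood at 6.79, 7.78 and 12.41 RPKM in normal and 22.80 and 40.27 RPKM in AML libraries. Means were 8.99 ± 3.00 and 31.5 ± 12.4 RPKM (SD, n = 3 and n = 2), a 3.51-fold rise (log2 fold change 1.69, SE 0.35, limma adjusted p = 0.012). The groups did not overlap, and AML 2 was the highest. Its call was lost only without AML 2 (adjusted p = 0.11). Snrpf shares its locus with Ccdc38 and 4933408J17Rik, both on the other strand. Snrpd2, the Sm protein D2 (chromosome 7, 19735071 to 19738084), went from 15.63, 20.69 and 24.44 RPKM to 44.56 and 49.58 RPKM, 2.32-fold (log2 fold change 1.20, SE 0.26, limma adjusted p = 0.014). The 2 AML values were close together and far above normal, and the call was lost without AML 1 (adjusted p = 0.065), AML 2 (0.11) or normal 2 (0.058). Snrpa1 encodes a protein specific to the U2 snRNP (chromosome 7, 73205185 to 73219468). It went from 9.73, 13.12 and 16.52 RPKM to 22.22 and 30.78 RPKM, 2.02-fold (log2 fold change 0.97, SE 0.29, limma adjusted p = 0.042), and was lost without either AML library, normal 1 or normal 2 (0.08 to 0.25).

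The Sm proteins form a ring around most spliceosomal RNAs, and their genes did not move evenly. The summed level of the 7 genes was 191, 238 and 330 RPKM in normal 1 to 3 and 391 and 569 RPKM in AML 1 and AML 2. Log2 fold changes of Snrpd1, Snrpd2, Snrpd3, Snrpe, Snrpf and Snrpg ran from 0.78 to 1.69. Of these 6 only Snrpd2 and Snrpf were called, which is 33.3%, against 19.3% of all tested genes called higher. Snrpb, which encodes the B proteins of the ring, had a log2 fold change of -0.02 (SE 0.28, limma adjusted p = 0.97), at 39.9, 40.9 and 43.0 RPKM in normal and 53.4 and 31.1 RPKM in AML libraries. Its AML values lay on either side of the normal ones. Snrpg was just outside the threshold, with 9.63, 9.33 and 17.51 RPKM against 20.46 and 36.83 RPKM (log2 fold change 1.17, SE 0.37, adjusted p = 0.05 after rounding). Snrpd3, the most abundant of the ring, was listed at 66.50, 80.13 and 129.26 RPKM in normal and 141.05 and 163.84 RPKM in AML libraries (log2 fold change 0.78, SE 0.33, adjusted p = 0.11). Normal 3 lay close to AML 1 here. Snrpd1 was highest in AML 2, at 33.79, 52.87 and 59.82 RPKM against 66.20 and 149.78 RPKM (log2 fold change 1.05, SE 0.41, adjusted p = 0.094). Snrpe was similar, at 18.79, 25.81 and 43.40 RPKM against 42.38 and 97.16 RPKM, where AML 1 lay below normal 3 (log2 fold change 1.19, SE 0.46, adjusted p = 0.091). In all 7 ring genes normal 3 exceeded normal 1 and normal 2, and in 6 of 7 AML 2 exceeded AML 1, Snrpb being the exception. Over all 10166 tested genes normal 3 exceeded normal 1 and normal 2 in 3888, and AML 2 exceeded AML 1 in 3935. Without normal 3 Snrpd1, Snrpd3, Snrpe and Snrpg were called too, at limma adjusted p of 0.035, 0.009, 0.013 and 0.0057. In that fit 27.3% of all genes were called higher.

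**Figure D3:**
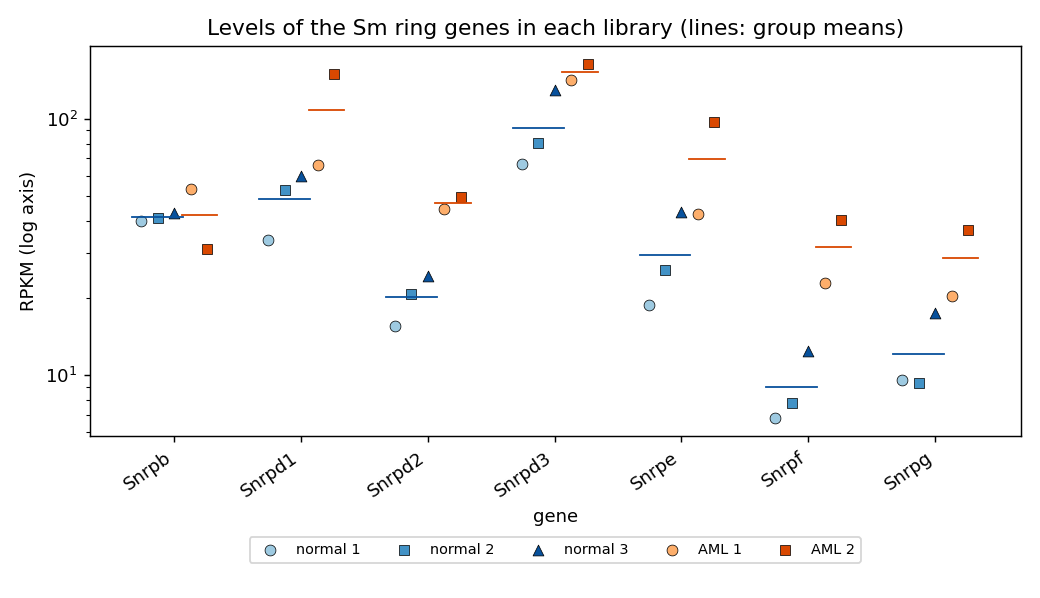
RPKM (vertical log axis) of the 7 Sm ring genes in each library, with lines at the group means. Normal 3 is the highest normal library for every gene, AML 2 is above AML 1 for all but Snrpb, and the group means of Snrpb nearly coincide (41.3 and 42.2 RPKM).

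Proteins specific to a single snRNP differed among themselves. Snrpa, which binds a stem loop of the U1 RNA, was listed at 8.13, 7.89 and 13.31 RPKM in normal and 18.42 and 17.65 RPKM in AML libraries (log2 fold change 0.86, SE 0.28, limma adjusted p = 0.055), without overlap. Snrpc, a protein of the same U1 particle, had the opposite sign, at 26.2, 33.4 and 21.4 RPKM against 26.2 and 13.1 RPKM (log2 fold change -0.49, SE 0.34, adjusted p = 0.31), with AML 1 inside the normal range. Snrpb2, the partner of Snrpa1 in the U2 snRNP, was at 21.70, 33.68 and 36.47 RPKM against 31.14 and 41.50 RPKM and overlapped (log2 fold change 0.26, SE 0.30, adjusted p = 0.53).

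Promoter sequences of 4 risen members are shown as examples from the SR, snRNP and U2AF groups, chosen after their values were seen from the called members matched in the RefSeq table. They are the 150 bases before the first listed transcription start (GRCm38.p6, a later build than the mm9 of the expression table), 5′ to 3′ on the strand of the gene. Capitals mark GC boxes, the only motif of those searched that these stretches held: Snrpf at chr10:93589659-93589808 (minus strand), Snrpd2 at chr7:19149688-19149837 (plus strand), Srsf4 at chr4:131873487-131873636 (plus strand) and U2af1 at chr17:31658765-31658914 (minus strand).
Snrpf: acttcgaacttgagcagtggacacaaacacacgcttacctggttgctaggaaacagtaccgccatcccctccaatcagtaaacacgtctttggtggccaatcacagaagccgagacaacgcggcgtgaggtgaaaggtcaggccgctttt
Snrpd2: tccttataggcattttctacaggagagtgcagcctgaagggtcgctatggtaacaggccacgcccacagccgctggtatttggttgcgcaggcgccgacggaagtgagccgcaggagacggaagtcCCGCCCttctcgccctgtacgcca
Srsf4: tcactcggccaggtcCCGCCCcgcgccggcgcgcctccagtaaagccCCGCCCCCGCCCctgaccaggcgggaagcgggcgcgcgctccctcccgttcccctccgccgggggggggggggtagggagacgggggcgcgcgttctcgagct
U2af1: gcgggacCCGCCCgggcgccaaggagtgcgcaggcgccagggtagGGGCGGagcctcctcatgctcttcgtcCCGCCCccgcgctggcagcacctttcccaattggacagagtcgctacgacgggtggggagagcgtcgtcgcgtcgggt
Srsf4 and U2af1 hold 3 GC boxes each in these stretches, Snrpd2 holds 1 and Snrpf holds none.

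Motifs were counted over 250 bases before to 50 after each start, on both strands, for the 57 tested members with an entry. The GC box GGGCGG occurred in 68.4% of members, 69.6% of tested genes and 38.2% of all 27025 genes with a promoter entry. The ETS motif CCGGAAG occurred in 35.1% of members, 22.1% of tested genes and 9.93% of all. It was held by 5 of 6 SF3 genes and 2 of 17 hnRNP genes. The E-box CACGTG, a motif of MYC and other factors, occurred in 14.0% of members, 12.1% of tested genes and 8.09% of all, and in none of the 13 SR rows. TATAAA occurred in 10.5%, 8.41% and 15.7%. Matches of different motifs may overlap, and a match describes sequence, not a binding site.

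Subunits of SF3a and SF3b, the complexes with which the U2 snRNP grips the branch point, gave 1 call among 8 tested genes. The call was upward, which is 12.5%, against 19.3% of all tested genes called higher. Sf3b5, the smallest SF3b subunit (chromosome 10, 12728256 to 12728988, mm9), rose from 16.85, 19.05 and 31.17 RPKM to 54.00 and 45.20 RPKM, 2.22-fold (log2 fold change 1.16, SE 0.31, limma adjusted p = 0.03). No value overlapped between groups, and the call was lost without either AML library, normal 1 or normal 2 (0.089 to 0.14). Sf3b1, the subunit that holds the branch point and the most often mutated in human disease, was at 90.4, 101.9 and 101.8 RPKM in normal and 72.3 and 87.4 RPKM in AML libraries. Both AML values lay below all normal values, but the difference did not pass (log2 fold change -0.30, SE 0.23, adjusted p = 0.35). Sf3b2 was as abundant and overlapped, at 105.74, 100.28 and 78.05 RPKM against 123.69 and 80.86 RPKM (log2 fold change 0.09, SE 0.29, adjusted p = 0.83). Sf3a2 narrowly missed, from 19.23, 14.70 and 23.65 RPKM to 30.83 and 40.68 RPKM (log2 fold change 0.88, SE 0.28, adjusted p = 0.051). Sf3b3, which forms a scaffold of the complex, went from 20.74, 18.97 and 16.70 RPKM to 34.47 and 25.87 RPKM (log2 fold change 0.65, SE 0.24, adjusted p = 0.079). Sf3a3 also stood apart between groups, while Sf3a1 and Sf3b4 overlapped with log2 fold changes of -0.13 and 0.04. The median of the group was 0.24.

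U2af1 rose, while the other 2 U2AF genes did not pass. U2af1 encodes the small U2AF subunit, which contacts the AG at the end of an intron (chromosome 17, 31784027 to 31795699, mm9). It stood at 31.96, 39.83 and 34.25 RPKM in normal and 69.30 and 78.93 RPKM in AML libraries, with means of 35.3 ± 4.05 and 74.1 ± 6.81 RPKM (SD, n = 3 and n = 2), 2.10-fold higher (log2 fold change 1.05, SE 0.23, limma adjusted p = 0.015). Here the normal libraries were close together, normal 3 included, and both AML values were far above them. Its call was lost without AML 1 (adjusted p = 0.061), AML 2 (0.11), normal 1 (0.058) or normal 2 (0.054), with log2 fold changes between 0.96 and 1.14. U2af2, the large subunit that binds the polypyrimidine tract, was listed at 41.37, 39.66 and 71.92 RPKM against 65.33 and 73.91 RPKM, and normal 3 fell between the AML values (log2 fold change 0.49, SE 0.32, adjusted p = 0.27). U2af1l4, a paralogue of the small subunit also called U2AF26, was at 15.71, 19.30 and 23.76 RPKM against 26.98 and 26.02 RPKM, without overlap (log2 fold change 0.44, SE 0.25, adjusted p = 0.21). Zrsr2, which acts like U2af1 on minor introns and was fixed beside the members, was at 4.07, 5.27 and 6.03 RPKM against 5.47 and 8.38 RPKM and overlapped (log2 fold change 0.36, SE 0.27, adjusted p = 0.34).

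Prpf genes split evenly by sign, and the only fall called among all members was here. It makes up 8.33% of the 12 tested genes, against 11.8% of all tested genes called lower. Prpf18, a factor of the second catalytic step (chromosome 2, 4543104 to 4573159, mm9), went from 18.0, 19.8 and 17.5 RPKM in normal to 12.1 and 8.3 RPKM in AML libraries, with means of 18.4 ± 1.21 and 10.2 ± 2.69 RPKM (SD, n = 3 and n = 2), 1.81-fold lower (log2 fold change -0.81, SE 0.24, limma adjusted p = 0.04). Its groups did not overlap, and AML 2 was the lowest. The call was lost with no filter on low values, and without either AML library, normal 1 or normal 2 (0.06 to 0.25). Prpf8, the central protein of the U5 snRNP and of the active site, varied more within the normal group than between groups, at 50.8, 30.9 and 19.8 RPKM against 33.9 and 23.9 RPKM (log2 fold change -0.14, SE 0.40, adjusted p = 0.81). Prpf38b had the highest log2 fold change of the group, at 36.49, 51.77 and 77.06 RPKM against 68.44 and 128.96 RPKM, also with overlap through normal 3 (log2 fold change 0.82, SE 0.40, adjusted p = 0.16). Prpf3, Prpf4 and Prpf31 of the U4/U6 snRNP, with Prpf19 and Prpf39, each had both AML values above all normal values. The largest of these differences was that of Prpf3, from 11.40, 12.84 and 15.01 RPKM to 17.72 and 22.43 RPKM (log2 fold change 0.58, SE 0.23, adjusted p = 0.1). Prpf31 was close within both groups, at 7.60, 7.40 and 8.39 RPKM against 10.85 and 11.19 RPKM (log2 fold change 0.45, SE 0.21, adjusted p = 0.14). Prpf6 (-0.17), Prpf4b (-0.21) and Prpf38a (-0.35) had log2 fold changes below 0, and all 3 overlapped. The median of the 12 tested genes was 0.09 and turned to -0.03 with median centring and -0.01 with quantile normalization.

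**Figure D4:**
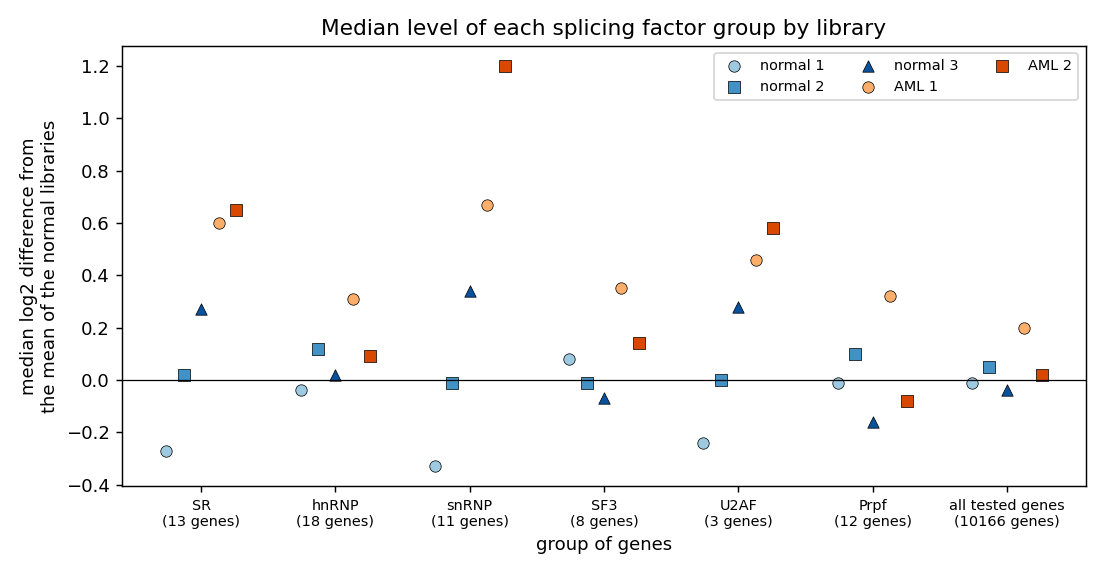
Median over the genes of each group, per library, of the log2 difference from the mean of the normal libraries (vertical axis); the last column is all tested genes. In the snRNP group medians run from -0.33 in normal 1 to 1.20 in AML 2, with normal 3 at 0.34, whereas in the Prpf group AML 2 (-0.08) lies inside the normal range.

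Differences between libraries of the same group also varied by splicing factor family. Normal 3 minus the mean of normal 1 and normal 2 had a median log2 difference of 0.51 over snRNP genes, 0.43 over U2AF genes and 0.41 over SR rows, against -0.06 over all tested genes. It was -0.24 over Prpf genes and -0.11 over SF3 genes. AML 2 minus AML 1 gave 0.40 over snRNP and 0.27 over SR genes but -0.32 over SF3 and -0.29 over Prpf genes, against -0.13 over all genes. Erythroid and monocyte markers were also lower in normal 3 than in the other normal libraries. The part of those cells in these differences was not tested.

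Transcript length moved with the fold change, among members and among all genes. The 14 tested members whose longest coding transcript was under 1500 bases had a median log2 fold change of 1.01, against 0.40 for 21 of 1500 bases or more but under 3000 and 0.29 for 30 of 3000 bases or more. Over all 10034 tested genes with a length the same medians were 0.54, 0.23 and -0.10. The members' median lay above that of all genes in each length class. Spearman's rho between length and log2 fold change was -0.41 over 65 members and -0.29 over all genes, as a description across genes that share the same 5 libraries. Differences within groups had a rho of the same sign over all genes, -0.46 for normal 3 against normal 1 and normal 2, and -0.38 for AML 2 against AML 1. The snRNP genes were the shortest group, with a median of 861 bases, and Prpf genes the longest, with 3333 bases. With a length trend removed from each library 4 members were higher and 1 lower (6.15% and 1.54%, against 16.0% and 17.2% of all genes). Sf3b3 and Srsf2ip, not called as reported, were called higher in this fit. Of the 10 calls 3 remained, Snrpf (log2 fold change 1.07, limma adjusted p = 0.018), Srsf4 (1.21, 0.028) and Prpf18 (-0.84, 0.015). Hnrnph3 (0.84, adjusted p = 0.063), Srsf12 (1.04, 0.057) and Srsf7 (0.66, 0.081) lost their calls. The values of Snrpf, above, and of U2af1 (0.46, adjusted p = 0.15), Sf3b5 (0.48, 0.15), Snrpd2 (0.45, 0.099) and Snrpa1 (0.51, 0.11) shrank by more than 1.5 times, and the snRNP median went from 0.97 to 0.43. Whether RNA quality differed between libraries was not tested.

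**Figure D5:**
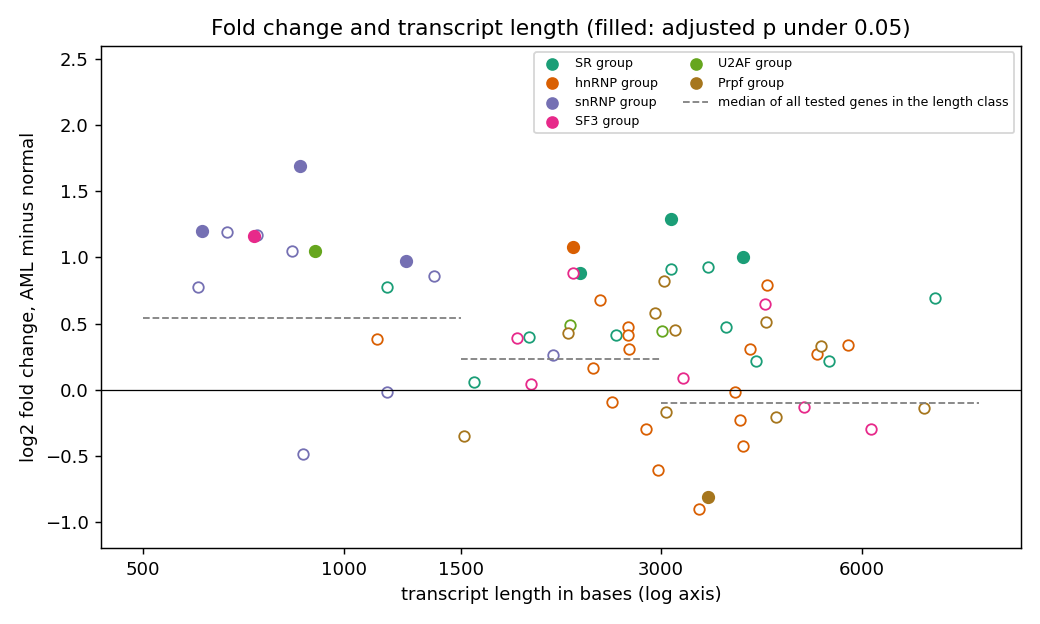
Log2 fold change between AML and normal cells (vertical axis) against the length of the longest coding transcript (horizontal log axis) for the tested members other than 1 Prpf gene, filled where called; dashed lines are medians of all tested genes in 3 length classes. Under 1500 bases the called genes Snrpd2, Snrpf, Snrpa1, Sf3b5 and U2af1 lie near or above 1 and Snrpb and Snrpc below 0, while the all-gene medians fall from 0.54 to -0.10 with length.

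Related splicing genes outside the 6 name patterns gave a like picture. Of 126 genes in 8 lists 124 were matched to a row and 120 were tested. Srek1, an entry of the SR-related list, was not matched, and the row Srsf12, read as Srek1, is counted among the members alone. Of the 120 tested genes 14 were higher and 1 lower, with a median log2 fold change of 0.33. Those shares, 11.7% and 0.833%, were also below the 19.3% and 11.8% of all tested genes. Near the branch point and the end of the intron 3 of 12 genes rose. Puf60, a poly-U binding partner of U2AF, had the lowest adjusted p of the list, from 36.82, 38.31 and 50.08 RPKM to 95.46 and 110.75 RPKM, 2.47-fold (log2 fold change 1.29, SE 0.25, limma adjusted p = 0.0095). Its 2 AML values were far above normal, and the call was lost without AML 2 (0.085) or normal 2 (0.054). The other 2 were Rbm10, an RNA-binding regulator (0.84, SE 0.25, adjusted p = 0.04), and Phf5a, a small SF3b subunit (0.79, SE 0.25, adjusted p = 0.049).

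Calls among particle proteins and their assembly factors were all upward, at 15.0% of snRNP-specific, 33.3% of LSm and 7.69% of assembly genes, against 19.3% of all tested genes. Of 20 further snRNP proteins 3 rose: Sart3, the U6 recycling factor, from 9.99, 10.02 and 10.87 RPKM to 19.60 and 24.54 RPKM (log2 fold change 1.02, SE 0.22, limma adjusted p = 0.014), Ddx23, the helicase of the U5 snRNP (0.99, SE 0.24, adjusted p = 0.022), and Nhp2l1, a U4 binding protein (0.92, SE 0.26, adjusted p = 0.039). Of 9 tested LSm genes, most of them of the rings of the U6 snRNP and of mRNA decay, 3 rose. Lsm7 went from 1.80, 2.30 and 4.89 RPKM to 8.35 and 15.81 RPKM, 4.03-fold (log2 fold change 1.73, SE 0.40, adjusted p = 0.019), beside Lsm6 (1.04, SE 0.26) and Lsm2 (0.85, SE 0.24). Of 13 tested snRNP assembly genes Gemin4, a subunit of the SMN complex, rose from 0.78, 0.60 and 0.72 RPKM to 2.62 and 2.04 RPKM (log2 fold change 0.97, SE 0.19, adjusted p = 0.0095).

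Among regulators and late factors 4 genes were called higher and 1 lower. Calls higher made up 15.4% of SR kinases and SR-related proteins and 10.0% of Prp19 and catalytic step genes, against 19.3% of all tested genes. Among alternative splicing regulators 0% were called higher and 4.0% lower, against 19.3% and 11.8% of all tested genes. Of 13 SR kinases and SR-related proteins 2 rose, Tra2a, a splicing activator, 2.51-fold (log2 fold change 1.30, SE 0.38, limma adjusted p = 0.041) and Srpk2, a kinase of SR proteins, 2.03-fold (0.99, SE 0.22, adjusted p = 0.015). Srpk2 was even within groups, at 24.27, 24.95 and 23.84 RPKM against 45.44 and 53.29 RPKM. Of 20 genes of the Prp19 complex and the catalytic steps Ppil1 and Ppie, both cyclophilins, rose (1.09, SE 0.28 and 0.94, SE 0.22). No exon junction complex gene was called among 8 (limma adjusted p = 0.35 for Magoh and 0.081 for Pnn, the 2 of highest mean). Of the 8 genes 3 had a limma unadjusted p under 0.05 (37.5%, against 43.9% of all tested genes). Among 25 tested alternative splicing regulators Qk, the STAR protein quaking, was the only call and fell, from 25.1, 25.1 and 11.1 RPKM to 8.7 and 3.9 RPKM, 3.24-fold (log2 fold change -1.55, SE 0.44, adjusted p = 0.038). AML 2 was the lowest library, and normal 3 lay between the other normal libraries and the AML libraries. Without AML 2 every called gene of these lists other than Gemin4, which that fit did not test, lost its call, at limma adjusted p of 0.062 to 0.27. The number of related genes called higher was 3 without normal 1, 1 without normal 2 and 39 without normal 3. Of all genes 11.4%, 9.61% and 27.3% were called higher in these fits.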

How the data were processed

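Total RNA came from sorted mouse cells and was made into TruSeq RNA libraries, per the labels' protocols. A single deposited table of 34240 features with 5 columns was used, each column matched to its sample by title. The values deposited by the authors are taken to be RPKM from the values alone, since labels and headers name no unit: totals differed between libraries, and values times transcript length in kb summed to between 830212 and 900742. Per the submitters' processing notes, reads were placed on mm9. Aligner, counting tool and annotation remain not given in the sources used here, and without counts the depth is unknown and no counting error can be given. Genes that reached 1 RPKM in 2 or more libraries were compared with limma 3.58.1 in R 4.3.3 on log2(RPKM + 1), a scale that understates changes of low genes (variance trend, robust, two-sided, Benjamini-Hochberg over all genes, threshold 0.05), and the fit was tested on simulated data. Means and folds are of RPKM. Of 21 tested members deposited with 1 decimal 4 had a log2 fold change above 0, against 44 of 44 with 2 decimals. Rounding all values to 1 decimal kept all 10 calls, which is a check of precision only. Why the number of decimals went with direction was not tested. Positions and lengths came from GENCODE M1 (NCBIM37, equal to mm9), which located 70 of 71 rows by symbol, with 4 rows read as older symbols through RefSeq synonyms. Each called member is named, as are the 2 most abundant members per group that were not called, Srsf2, Sf3b1, U2af1, Prpf8 and Zrsr2, and up to 3 called genes (or the 2 most abundant) per related list. A single Prpf gene is counted but not reported here by name. Other members were chosen after their values were seen. Members and lists were chosen with earlier results of these data known.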

Additional observations from a re-analysis of the deposited data

How the results depend on the processing

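Directions of the 10 called members held in every fit, while most calls did not hold in every fit. Members called higher numbered 9 as reported, 4 with the length trend removed, 4 with no filter, and 5 with median centring, quantile normalization or upper quartile scaling; those called lower numbered 1, and 0 with no filter. Without Hnrnph3, Snrpa1, Srsf7 and the row Srsf12, 6 of 10 calls remained under each of the 3 scalings. A filter at 5 RPKM, a pseudocount of 0.1 and a fit without trend or robust estimation gave 11, 10 and 12. Leaving out 1 library gave 0 to 23 members higher and 0 to 2 lower, 0 to 39 related genes higher and 0 to 5 lower, and 326 to 2757 of all genes higher and 348 to 2142 lower. Related genes called higher numbered 8 with the length trend removed and 8 with no filter, and those lower numbered 3 with the length trend removed and 2 with median centring or quantile normalization. Median log2 fold changes with the length trend removed were 0.48 (SR), 0.08 (hnRNP), 0.43 (snRNP) and 0.04 (SF3). The hnRNP median was 0.12 with quantile normalization, and the SF3 median was 0.12 with median centring and with quantile normalization. The Prpf median was -0.14 with the filter at 5, -0.03 with median centring, -0.01 with quantile normalization and 0.33 with no filter. Leaving out 1 library gave medians of 0.55 to 0.65 (SR), 0.09 to 0.31 (hnRNP), 0.67 to 1.20 (snRNP), 0.14 to 0.35 (SF3), 0.37 to 0.76 (U2AF) and -0.08 to 0.32 (Prpf). For these shifts the cause was not tested. Fits that leave out 1 library rest on fewer libraries, and the part of this in the shifts was not tested either. No paired analysis was possible because the numbers in the titles of the 2 groups overlap in 1 number only. Where 1 AML library was left out, the remaining one was assumed to vary like the normal group.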
